A study of Homo sapiens with 15 samples.

Results

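All 12 libraries from cells exposed to a flame retardant were set against the 3 libraries from cells given only the solvent, with the 4 exposures weighted equally, so 15 of the 15 libraries of the series entered the comparison. The cells were HepG2, a line from a human hepatocellular carcinoma that keeps part of the hepatocyte programme. They were exposed for 72 h to tris(2-chloroethyl) phosphate (TCEP) at 25 µM, to TCEP at 250 µM, to tris(2-chloroisopropyl) phosphate (TCIPP) at 2.5 µM or to TCIPP at 25 µM, and the control cells to 0.1% dimethyl sulfoxide (DMSO). Each of the 5 groups had 3 libraries, whose cultures were seeded, treated and extracted apart from each other. The comparison asks which genes moved the same way whichever compound and concentration was given. HepG2 is a single tumour line, and 3 genes central to drug and bile acid metabolism in liver, CYP3A4, CYP2B6 and CYP7A1, had too few reads to be tested.

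TCEP and TCIPP are chlorinated phosphate triesters used as additive flame retardants in foams and plastics. TCIPP differs from TCEP by a methyl group on each chloroalkyl arm. Cells meet many chemicals with a few shared programmes. The heat shock programme, driven by HSF1, makes cytosolic chaperones, the unfolded protein response adjusts the endoplasmic reticulum through sensors such as IRE1, and the ATF4 programme makes amino acids and charges tRNAs when translation initiation is restrained. Hypoxia factors drive glycolysis, and NRF2 drives enzymes against oxidants and electrophiles.

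Total exon reads ran from 5.35 to 26.8 megareads in treated libraries (median 8.90) and were 7.91, 8.02 and 21.4 megareads in DMSO libraries. At those depths 3 reads correspond to 0.112 to 0.560 counts per megaread (CPM). Defining hepatocyte and liver tumour markers were high: the summed level of 10 hepatocyte genes was 10987 to 12542 RPKM in treated libraries and 11992 to 13730 RPKM in DMSO libraries, and that of AFP and GPC3 was 1474 to 1618 RPKM and 1499 to 1568 RPKM in the same order. Of 9 endothelial markers found in the tables, 1 was at 0 in all libraries and the sum was 1.18 to 2.66 RPKM in treated and 1.07 to 1.57 RPKM in DMSO libraries. Of 11 fibroblast and stellate cell markers, 4 were at 0, and the sum was 10.8 to 14.7 RPKM in treated and 13.1 to 14.7 RPKM in DMSO libraries. Of 12 macrophage and leukocyte markers, MS4A1 and CD2 were at 0 in all libraries, and PTPRC, a defining one, was at 0 in all treated libraries and at most 0.0135 RPKM in DMSO libraries. Their sum was 2099 to 2509 RPKM in treated and 2172 to 2793 RPKM in DMSO libraries, of which LYZ, lysozyme, made up 2077 to 2496 RPKM in treated and 2156 to 2781 RPKM in DMSO libraries. Reads of the 100 most abundant genes took 30.5 ± 0.301% in treated libraries and 31.0 ± 0.300% in DMSO libraries (SD, n = 12 and 3; exact permutation test, two-sided p = 0.0198, adjusted p = 0.0989 over 5 library measures). Shares of intron reads (8.46 ± 0.493% treated, 8.90 ± 0.211% DMSO) and of mitochondrial reads (6.46 ± 0.482% treated, 6.997 ± 0.709% DMSO) had exact permutation p-values of 0.180 and 0.134 (two-sided). These are bulk measurements, in which fewer cells of a kind and less RNA per cell cannot be told apart.

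Across 12567 genes the shared response was small. With edgeR's quasi-likelihood test and Benjamini-Hochberg adjustment, 0 genes (0%) passed an adjusted p of 0.05 for the mean of the 4 exposures against DMSO, and the smallest adjusted p was 0.0607. At an unadjusted p of 0.05 the same test had 671 genes higher (5.34%) and 671 lower (5.34%) in treated cells. DESeq2 on the same reads called 73 genes (0.581%), of which 51 were higher (0.406%) and 22 lower (0.175%) in treated cells and 72 had the same sign in all 4 exposures, whereas limma-voom called 0. The calls rest on the control libraries too: without DMSO replicate 2, edgeR called 32 genes higher and 16 lower. Without TCIPP at 25 µM it called 3 higher and 9 lower, and without replicate 1 of that exposure 4 higher and 8 lower. With the replicate number as a block it called far more, as given below. That block has not been shown to pair treated with DMSO libraries. The fits without it took the treated libraries as independent, although same-numbered ones varied together across exposures. SEs and intervals of the mean contrast may therefore be too narrow, and the DESeq2 calls too many. The 95% interval of a fold change reached 0.20 on the log2 scale to either side in the median gene.

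Direction was then read exposure by exposure. The log2 fold change was positive in all 4 exposures for 2545 genes (20.3%) and negative in all 4 for 2614 genes (20.8%), 5159 together (41.1%), but the 4 contrasts share their 3 DMSO libraries, so same signs are partly built in. A stricter description asks that all 12 treated libraries lie to one side of all 3 DMSO libraries. That held for 104 genes (0.828%), 49 above DMSO (0.39%) and 55 below (0.438%). Their shifts were modest, with a median absolute log2 fold change of 0.25 for those above and 0.29 for those below. Of these genes, 26 (25% of the 104, 35.6% of the DESeq2 calls) were also called by DESeq2.

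**Figure D1:**
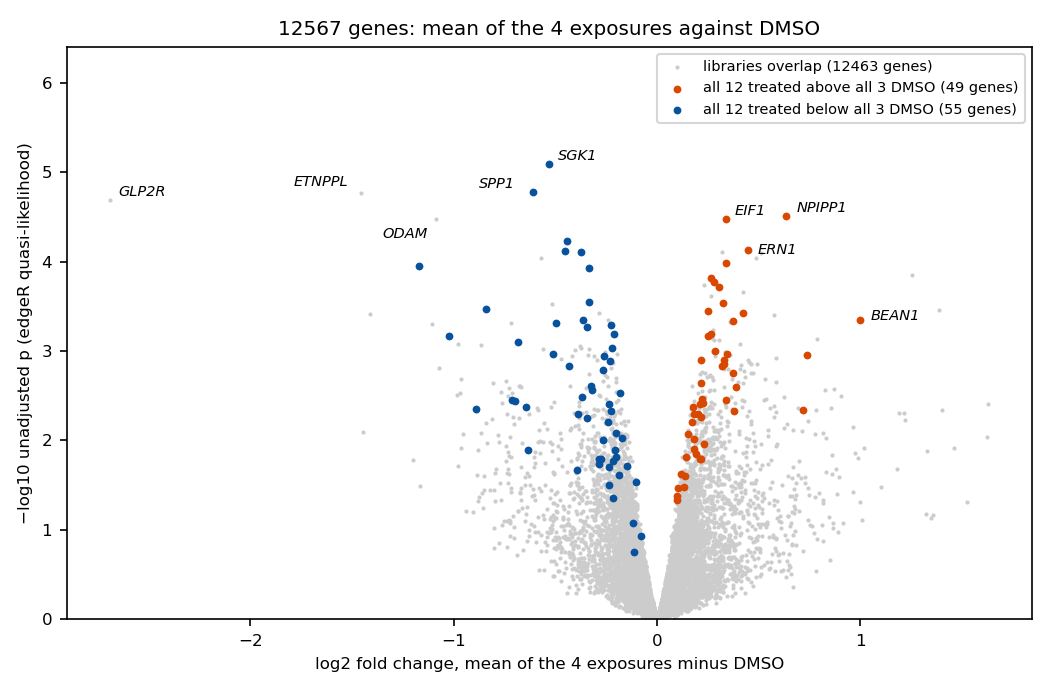
Each point is 1 of 12567 genes. The x axis is the log2 fold change of the mean of the 4 exposures minus DMSO and the y axis the −log10 of the unadjusted edgeR p. The 49 genes with all treated libraries above DMSO (orange) and the 55 below (blue) have median absolute changes of 0.25 and 0.29, and the libraries of GLP2R, at −2.69, overlap.

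By rule, the 5 genes per direction with the smallest p are described first, none of which passed in edgeR. SGK1 (chr6:134490384-134639250, minus strand, hg19), a serum- and glucocorticoid-induced kinase that regulates ion transport, had 58.1 to 75.8 CPM in treated libraries (median 62.6), against 102, 76.0 and 99.0 CPM in DMSO libraries. Every treated library lay below every DMSO library, although the highest treated value and DMSO replicate 2 were almost equal. By exposure its log2 fold change was −0.59 (TCEP 25 µM), −0.52 (TCEP 250 µM), −0.50 (TCIPP 2.5 µM) and −0.51 (TCIPP 25 µM), and −0.53 for their mean (SE 0.08; edgeR adjusted p = 0.0607, DESeq2 adjusted p = 5.12e-05). SPP1 (chr4:88896819-88904562, plus strand), which encodes the secreted phosphoprotein osteopontin, had 755 to 1171 CPM in treated libraries (median 993), against 1657, 1229.9 and 1498 CPM in DMSO libraries. Its groups did not overlap either, and the mean log2 fold change was −0.61 (SE 0.10; edgeR adjusted p = 0.0607, DESeq2 adjusted p = 5.12e-05), with −0.60 and −0.48 for the TCEP concentrations and −0.74 and −0.62 for those of TCIPP. SPP1 is also a marker of bile duct cells: the sum of 8 such markers, SPP1 included, was 502 to 647 RPKM in treated and 685 to 839 RPKM in DMSO libraries. Of that sum, SPP1 itself made up 298 to 473 RPKM in treated and 493 to 651 RPKM in DMSO libraries. CFTR was at 0 throughout. KRT19, a defining one, was at 50.0 to 87.3 RPKM in treated and 55.3 to 71.1 RPKM in DMSO libraries, which overlap, as they did for EPCAM, SOX9 and GGT1.

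The other 3 genes of the lower side had larger fold changes and overlapping libraries. ETNPPL, a lyase that breaks down phosphoethanolamine, had 0.845 to 4.52 CPM in treated libraries (median 1.77), against 7.16, 2.97 and 6.03 CPM in DMSO libraries. GLP2R, the receptor for glucagon-like peptide 2, was at 0 to 3.28 CPM in treated libraries (median 0.381), against 3.97, 1.24 and 4.68 CPM in DMSO libraries. ODAM, a secreted protein known from tooth enamel formation, had 22.3 to 56.5 CPM in treated libraries (median 37.1), against 90.3, 49.9 and 86.7 CPM in DMSO libraries. In each of the 3 it was DMSO replicate 2 that stood nearest to the treated libraries. Mean log2 fold changes were −1.46 (SE 0.25) for ETNPPL, −2.69 (SE 0.46) for GLP2R and −1.08 (SE 0.19) for ODAM, all at an edgeR adjusted p of 0.0607. DESeq2 called ODAM (adjusted p = 0.0165) and gave no adjusted p for ETNPPL and GLP2R. For GLP2R the exposures cannot be ranked, since TCIPP at 2.5 µM had 0.423, 0 and 0.148 CPM, near the level of 3 reads, and TCIPP at 25 µM had 3.28, 0.188 and 1.44 CPM.

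On the higher side, EIF1 (chr17:39845137-39848920, plus strand, hg19), a factor that helps the small ribosomal subunit select the start codon, had 475 to 567 CPM in treated libraries (median 509), against 399, 380.3 and 433 CPM in DMSO libraries. All treated libraries were above all DMSO libraries, at a mean log2 fold change of 0.34 (SE 0.06; edgeR adjusted p = 0.0607, DESeq2 adjusted p = 5.12e-05) and between 0.28 and 0.39 in the 4 exposures. Only 39.5% of its exon reads were unique to one place in the genome, so reads of related copies may be counted with it. With unique reads alone it was called by edgeR (adjusted p = 0.0444). ERN1 (chr17:62116502-62208179, minus strand), which encodes the endoplasmic reticulum stress sensor IRE1 alpha, had 32.5 to 45.3 CPM in treated libraries (median 36.8), against 25.8, 31.3 and 25.6 CPM in DMSO libraries. Here too the groups were apart, at a mean log2 fold change of 0.45 (SE 0.09; edgeR adjusted p = 0.0768, DESeq2 adjusted p = 0.00194), with 0.42 and 0.35 for TCEP and 0.50 and 0.52 for TCIPP.

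ASNS, asparagine synthetase, had 108 to 150.2 CPM in treated libraries (median 127), against 91.9, 109 and 99.8 CPM in DMSO libraries. FHL2, a LIM-domain protein that binds transcription factors, had 56.5 to 104 CPM in treated libraries (median 81.9), against 49.4, 61.4 and 57.7 CPM in DMSO libraries. Both overlapped DMSO slightly, at mean log2 fold changes of 0.32 (SE 0.06) and 0.51 (SE 0.10), an edgeR adjusted p of 0.0768 each, and DESeq2 adjusted p of 0.00082 and 0.000705. They were highest under different exposures: ASNS was at 0.50 with TCEP at 250 µM and 0.40 with TCIPP at 25 µM, but 0.18 and 0.20 at the lower concentrations, while FHL2 was at 0.74 and 0.72 at the lower concentrations of TCEP and TCIPP and at 0.34 and 0.25 at the higher ones. NPIPP1, a pseudogene of a repeated family, completed the set at 11.5 to 18.9 CPM in treated libraries, against 10.7, 8.05 and 9.54 CPM in DMSO libraries. With 6.34% unique reads, its level cannot be assigned to that copy.

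**Figure D2:**
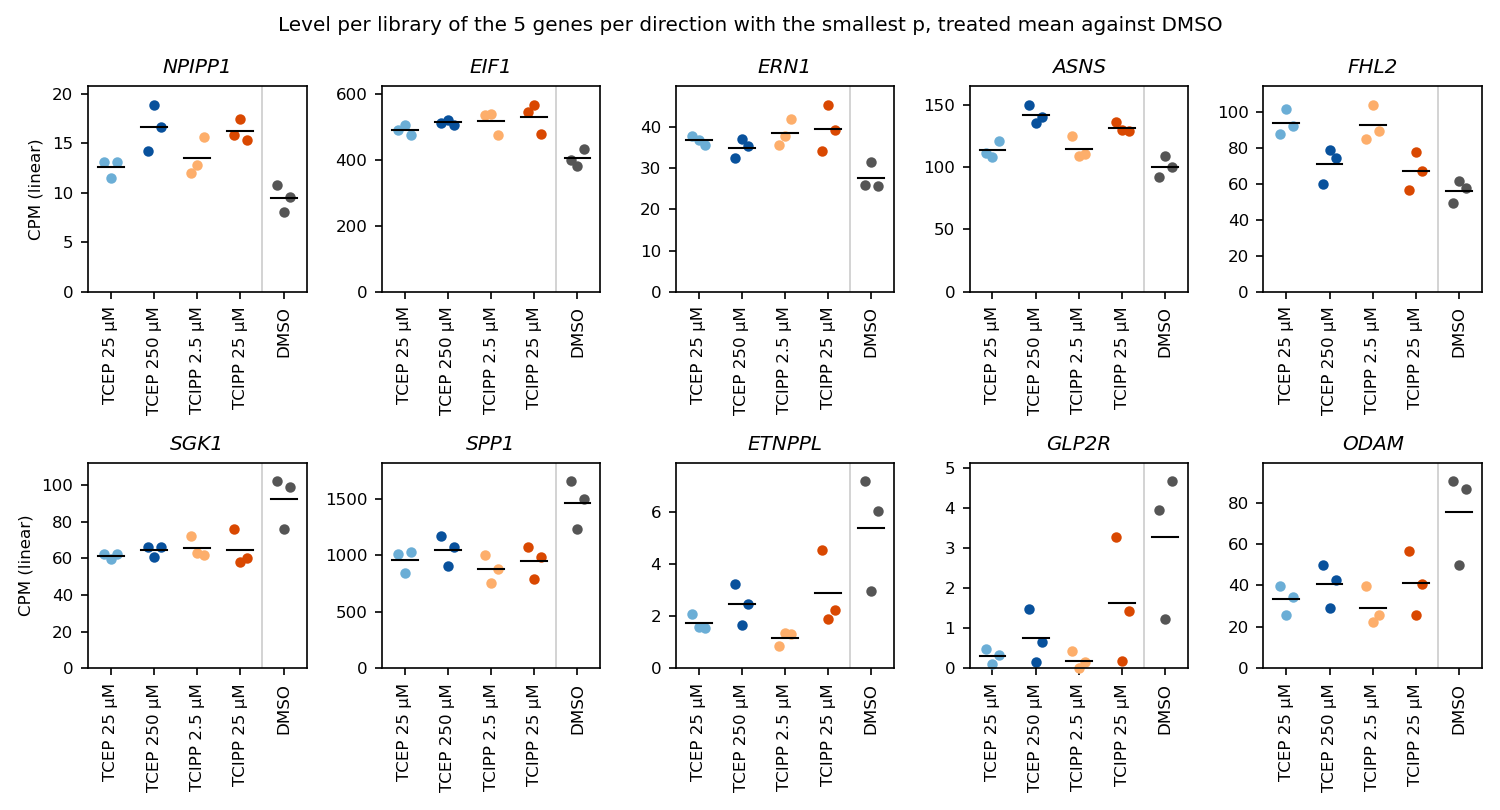
CPM on a linear axis for the 5 genes per direction with the smallest p (upper row higher, lower row lower in treated cells). Points are the 3 libraries of a group and black lines the group means, with the 4 exposures left of DMSO. SGK1, SPP1, EIF1, ERN1 and NPIPP1 have no treated library on the DMSO side, while GLP2R and ETNPPL reach the level of DMSO replicate 2 in TCEP at 250 µM and TCIPP at 25 µM.

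Heat shock proteins and their cochaperones stood lower in treated cells in all 4 exposures, though by little. Of 27 tested members, 17 had a negative log2 fold change in all 4 exposures and 5 a positive one, against 20.8% and 20.3% of all genes. The median log2 fold change was −0.10, against −0.0012 over all genes, and −0.05 without DMSO replicate 1. By exposure it was −0.07 (TCEP 25 µM), −0.06 (TCEP 250 µM), −0.12 (TCIPP 2.5 µM) and −0.14 (TCIPP 25 µM). Relative to the DMSO mean, the list's mean level was −0.241 to −0.0497 log2 units in treated libraries and −0.0206 to 0.0201 in DMSO libraries, without overlap. EdgeR called 0 of the 27 after adjustment, and 6 were lower and 0 higher at an unadjusted p of 0.05 (5.34% of all genes in each direction). DESeq2 called 4, all lower, against 0.175% of all genes called lower.

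Those 4 were HSPH1, CHORDC1, HSPA1A and HSP90AA1. HSPH1 (chr13:31710762-31736525, minus strand, hg19), the HSP110 nucleotide exchange factor for HSP70, had 132 to 187 CPM in treated libraries (median 171), against 201, 261 and 223 CPM in DMSO libraries. CHORDC1 (chr11:89934328-89956532, minus strand), an HSP90 cochaperone, had 44.6 to 66.2 CPM in treated libraries (median 56.4), against 70.5, 72.5 and 73.9 CPM in DMSO libraries. Neither gene overlapped between groups, where 0.438% of all genes had all treated libraries below DMSO. The log2 fold changes were −0.44 (SE 0.08) and −0.37 (SE 0.07), each with an edgeR adjusted p of 0.0768. HSPA1A, the inducible HSP70, had 248 to 375 CPM in treated libraries (median 296), against 486, 542 and 321 CPM in DMSO libraries. HSP90AA1, the inducible cytosolic HSP90, had 965 to 1532 CPM in treated libraries (median 1293), against 1504, 1590.1 and 1627 CPM in DMSO libraries. Both overlapped DMSO, HSPA1A through DMSO replicate 3 and HSP90AA1 through 1 treated library, replicate 1 of TCEP at 25 µM. Their log2 fold changes were −0.57 (SE 0.11; edgeR adjusted p = 0.0771) and −0.29 (SE 0.06; edgeR adjusted p = 0.142). Only 27.1% of the HSPA1A reads were unique, and the gene has a near-identical copy, HSPA1B, beside it. For HSP90AA1 the exposures spread between −0.07 with TCEP at 25 µM and −0.49 with TCIPP at 25 µM.

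HSF1 acts on inverted repeats of nGAAn, so the promoters of these genes were searched for GAANNTTC and TTCNNGAA, each of which reads the same on both strands. The windows run from 250 bases before to 50 after the gene start and come from RefSeq on build GRCh38.p14, which is not the build of the counts. Of the 23 tested members with a promoter in that table, 13 (56.5%) held a match in at least 1 window, against 13.6% of the 9761 tested genes with one and 13.5% of all 35116 windows. These shares describe the list and not the exposures. HSPH1 had 0 matches in its window. The 3 lower genes with matches are shown, with matched letters in capitals, because their promoters hold the element next to the start while their transcripts stood below DMSO in all 4 exposures; for HSP90AA1, which has 2 windows, the one with matches is given.
CHORDC1 (chr11:90223000-90223299, minus strand): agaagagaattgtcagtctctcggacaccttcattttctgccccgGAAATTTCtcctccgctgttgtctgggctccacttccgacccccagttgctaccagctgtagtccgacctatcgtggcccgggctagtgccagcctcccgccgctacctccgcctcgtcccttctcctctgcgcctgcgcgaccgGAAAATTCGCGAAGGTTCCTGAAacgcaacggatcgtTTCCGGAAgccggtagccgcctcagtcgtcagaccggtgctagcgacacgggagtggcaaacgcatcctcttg
HSPA1A (chr6:31815293-31815592, plus strand): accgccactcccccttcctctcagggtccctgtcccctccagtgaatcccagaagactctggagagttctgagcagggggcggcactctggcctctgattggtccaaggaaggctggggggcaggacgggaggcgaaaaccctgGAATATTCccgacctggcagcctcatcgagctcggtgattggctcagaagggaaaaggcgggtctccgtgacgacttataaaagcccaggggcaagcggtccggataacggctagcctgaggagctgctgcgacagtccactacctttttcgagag
HSP90AA1 (chr14:102086995-102087294, minus strand): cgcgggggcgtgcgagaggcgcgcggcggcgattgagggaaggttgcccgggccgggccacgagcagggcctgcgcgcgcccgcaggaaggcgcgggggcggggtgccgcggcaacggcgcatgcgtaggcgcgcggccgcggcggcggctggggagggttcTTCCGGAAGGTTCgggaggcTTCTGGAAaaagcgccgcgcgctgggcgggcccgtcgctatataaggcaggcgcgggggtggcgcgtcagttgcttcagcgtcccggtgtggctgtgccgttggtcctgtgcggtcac
The CHORDC1 window holds 6 matches, 4 of them overlapping in one run that starts 60 bases before the gene start. HSP90AA1 holds 3 and HSPA1A holds 1. A match describes letters in a window and was not tested as a binding site.

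**Figure D3:**
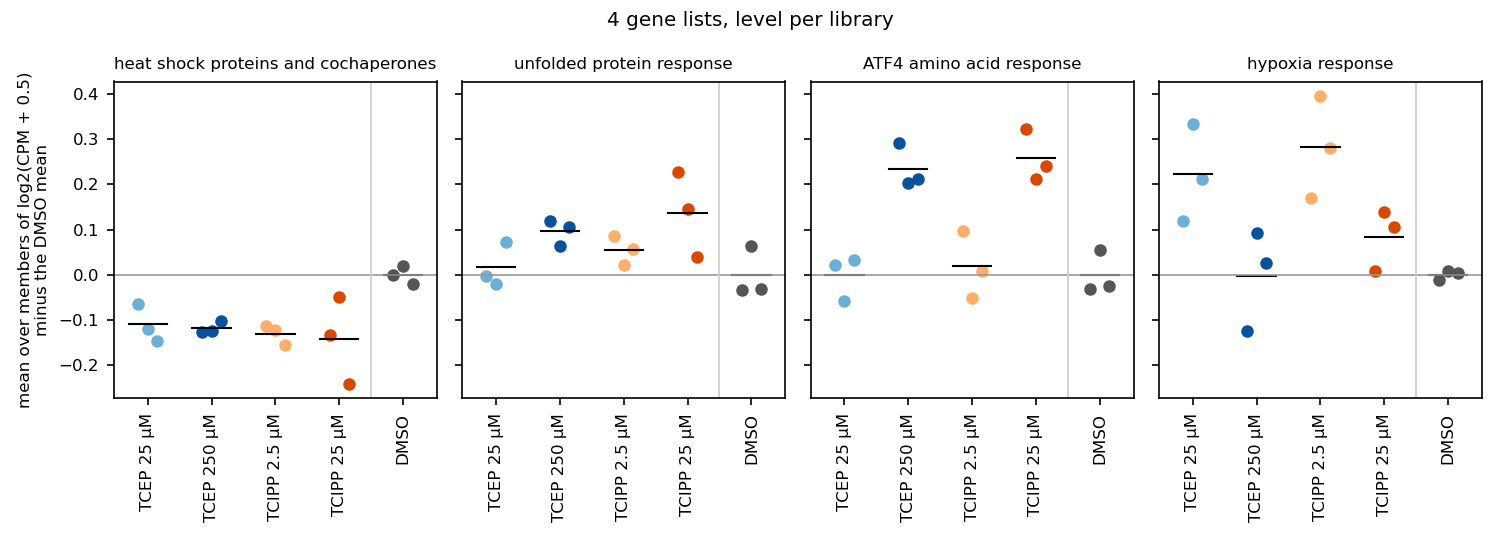
Mean over the members of a list of log2(CPM + 0.5), given as the difference from the DMSO mean, for each library (points) and group (black lines), with the 4 exposures left of DMSO. Heat shock genes lie below all 3 DMSO libraries in all 12 treated libraries, ATF4 genes are high at 250 µM TCEP and 25 µM TCIPP, and hypoxia genes are high at 25 µM TCEP and 2.5 µM TCIPP.

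Genes of the unfolded protein response had a small positive median in every exposure. Of 29 tested members, 14 were positive in all 4 exposures and 1 was negative in all 4. The median log2 fold change was 0.08 for the mean of the exposures, 0.06 (TCEP 25 µM), 0.10 (TCEP 250 µM), 0.04 (TCIPP 2.5 µM) and 0.11 (TCIPP 25 µM). At an unadjusted p of 0.05, 9 were higher and 1 lower (5.34% of all genes each way), and edgeR called 0 of them after adjustment while DESeq2 called ERN1 (0.406% of all genes were called higher). Beside ERN1, PPP1R15A, which guides dephosphorylation of eIF2 alpha, had a log2 fold change of 0.42 (SE 0.12; edgeR adjusted p = 0.261), at 74.7 to 127 CPM in treated libraries (median 94.4), against 81.1, 70.2 and 62.6 CPM in DMSO libraries. SEL1L, part of the machinery that removes misfolded proteins, had one of 0.17 (SE 0.06; edgeR adjusted p = 0.307). The member on the other side was CREB3L3, a liver transcription factor cut free from the endoplasmic reticulum membrane, at 10.5 to 14.9 CPM in treated libraries (median 11.6), against 16.4, 17.0 and 16.2 CPM in DMSO libraries. Its groups were apart, with a log2 fold change of −0.45 (SE 0.09; edgeR adjusted p = 0.0768).

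Targets of ATF4 had a larger median, with most of it at the higher concentrations. Of 43 tested members, 20 were positive in all 4 exposures and 3 negative in all 4, and 20 were higher and 1 lower at an unadjusted p of 0.05, against 5.34% of all genes in each direction. Yet the median log2 fold change was 0.23 with TCEP at 250 µM and 0.27 with TCIPP at 25 µM, against 0.02 with TCEP at 25 µM and 0.03 with TCIPP at 2.5 µM. Averaged over the exposures it was 0.15. DESeq2 called 4 members, all higher: ASNS, MTHFD2, CEBPG and YARS, against 0.406% of all genes, and edgeR called 0 after adjustment. MTHFD2, a mitochondrial folate enzyme, had a mean log2 fold change of 0.23 (SE 0.05; edgeR adjusted p = 0.103) and 0.36 at both higher concentrations. YARS, the tyrosyl-tRNA synthetase, had one of 0.26 (SE 0.06; edgeR adjusted p = 0.122), with 0.08 at 25 µM TCEP and 0.48 at 25 µM TCIPP.

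Of the 43, 3 had all treated libraries above DMSO, as did 0.39% of all genes. CEBPG, a transcription factor that pairs with ATF4, had 81.4 to 94.4 CPM in treated libraries (median 87.5), against 68.6, 77.6 and 74.2 CPM in DMSO libraries. The groups were apart, at 0.22 and 0.29 with TCEP, 0.21 and 0.29 with TCIPP and 0.25 for the mean (SE 0.06; edgeR adjusted p = 0.142). JDP2, a repressor of the AP-1 family, had 12.5 to 17.8 CPM in treated libraries (median 14.5), against 10.1, 11.5 and 12.1 CPM in DMSO libraries, and VLDLR, a lipoprotein receptor, had 23.9 to 29.0 CPM in treated libraries (median 26.6), against 23.3, 23.3 and 22.5 CPM. Both were also apart, at log2 fold changes of 0.38 (SE 0.09; edgeR adjusted p = 0.145) and 0.19 (SE 0.07; edgeR adjusted p = 0.333).

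ATF4 binds with C/EBP partners to a composite element, searched here as TGATGNAA on both strands in the same kind of window. It was present in 14 of the 35 ATF4 list members with a promoter in the table (40%), against 2.78% of the 9761 tested genes with one and 3.62% of all windows. The list is made of ATF4 targets, so this share describes the list and not the exposures. ASNS, CEBPG and JDP2 have 1 window each with 1 match, which starts 68, 42 and 16 bases before the gene start, and MTHFD2 and ERN1 have 0. These windows are shown because the genes were the ones of this list among the strongest mean shifts that hold the element.
ASNS (chr7:97872359-97872658, minus strand): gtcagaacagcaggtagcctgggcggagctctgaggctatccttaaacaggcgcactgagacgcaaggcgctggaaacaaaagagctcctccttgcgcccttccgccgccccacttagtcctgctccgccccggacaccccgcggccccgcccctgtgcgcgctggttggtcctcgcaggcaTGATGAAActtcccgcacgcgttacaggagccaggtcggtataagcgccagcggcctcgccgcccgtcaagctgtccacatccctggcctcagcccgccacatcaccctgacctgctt
CEBPG (chr19:33373863-33374162, plus strand): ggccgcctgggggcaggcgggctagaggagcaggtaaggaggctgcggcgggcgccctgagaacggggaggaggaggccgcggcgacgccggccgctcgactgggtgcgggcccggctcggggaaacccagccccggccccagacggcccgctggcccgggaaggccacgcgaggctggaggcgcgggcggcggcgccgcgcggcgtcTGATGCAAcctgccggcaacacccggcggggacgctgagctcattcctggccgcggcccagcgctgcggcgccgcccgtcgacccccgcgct
JDP2 (chr14:75427772-75428071, plus strand): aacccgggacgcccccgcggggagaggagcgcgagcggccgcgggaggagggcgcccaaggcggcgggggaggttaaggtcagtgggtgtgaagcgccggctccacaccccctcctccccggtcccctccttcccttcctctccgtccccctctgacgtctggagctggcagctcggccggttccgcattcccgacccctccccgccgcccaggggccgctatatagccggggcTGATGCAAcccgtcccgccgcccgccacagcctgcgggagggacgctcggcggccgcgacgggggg
All 3 genes had a positive log2 fold change in all 4 exposures, with larger values at the higher concentration of each compound.

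**Figure D4:**
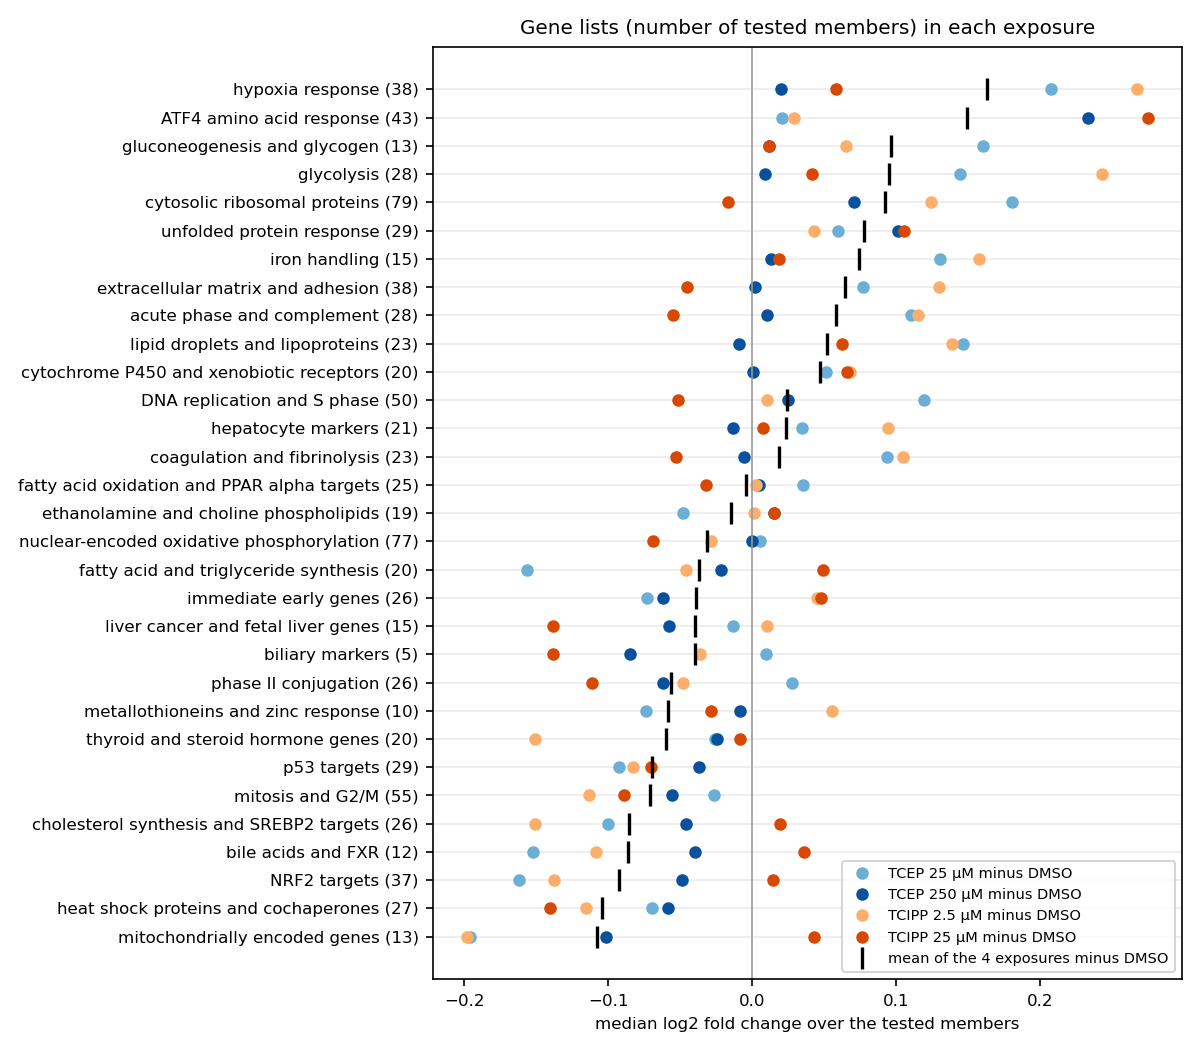
Median log2 fold change over the tested members of each list (x axis) in each exposure minus DMSO (coloured points) and for the mean of the 4 exposures (black bars), for lists with at least 5 tested members, whose numbers are in brackets. Heat shock, p53, mitosis and thyroid and steroid hormone lists have all 4 points below 0. All 4 points lie above 0 for the unfolded protein response, and also for the hypoxia, ATF4, glycolysis, gluconeogenesis, iron and cytochrome P450 lists. Those of the hypoxia and ATF4 lists lie far apart.

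Hypoxia and glycolysis genes also had positive medians, of 0.16 over 38 members and 0.10 over 28, but in the opposite exposures. The hypoxia list stood at 0.21 with TCEP at 25 µM and 0.27 with TCIPP at 2.5 µM, against 0.02 with TCEP at 250 µM and 0.06 with TCIPP at 25 µM. In that list 21 of 38 members were positive in all 4 exposures, 14 were higher and 0 lower at an unadjusted p of 0.05 (5.34% of all genes each way), and DESeq2 called 4, all higher (0.406% of all genes), while edgeR called 0. ZNF395, a zinc finger factor induced by low oxygen, had 56.4 to 84.2 CPM in treated libraries (median 69.0), against 51.9, 56.0 and 54.2 CPM in DMSO libraries, which were all lower. Its log2 fold change was 0.34 (SE 0.07; edgeR adjusted p = 0.082), with 64.2% unique reads. LOX, which cross-links collagen, had 133 to 258 CPM in treated libraries (median 187), against 142, 143 and 135 CPM in DMSO libraries, and its log2 fold change of 0.45 (SE 0.12; edgeR adjusted p = 0.194) was 0.58 and 0.68 at the lower concentrations but 0.23 and 0.33 at the higher ones. QSOX1, a disulfide-forming oxidase, and DDIT4, an inhibitor of mTORC1, had 0.36 (SE 0.09) and 0.28 (SE 0.07), each with an edgeR adjusted p of 0.186. CA9, a carbonic anhydrase much used as a hypoxia marker, was at 0.39 and −0.12 with TCEP and 0.61 and 0.04 with TCIPP.

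Targets of NRF2 had a negative median of −0.09 over 37 members, 16 of them negative and 5 positive in all 4 exposures. By exposure the medians were −0.16 and −0.05 with TCEP and −0.14 and 0.01 with TCIPP. At an unadjusted p of 0.05, 11 were lower and 1 higher (5.34% of all genes each way), and edgeR called 0. DESeq2, which called 0.175% of all genes lower, called AKR1B1, an aldose reductase, at an edgeR log2 fold change of −0.42 (SE 0.11). AKR1C2, which reduces steroids and carbonyls, and GPX2, a glutathione peroxidase, had −0.58 (SE 0.18) and −0.52 (SE 0.16), both with an edgeR adjusted p of 0.262. Unique reads made up 62.0% for AKR1C2 and 11.7% for GPX2. NQO1, a classical NRF2 target, was at −0.16 (SE 0.07; edgeR adjusted p = 0.426). HMOX1, heme oxygenase, went the other way in the mean at 0.24 (SE 0.09; edgeR adjusted p = 0.374), and its exposures were split at 0.42 and 0.05 with TCEP and 0.54 and −0.05 with TCIPP, lower concentration first.

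Immediate early genes, which cells switch on within minutes of a stimulus, were mixed: 6 of 26 were positive and 5 negative in all 4 exposures, and the median was −0.04 (−0.0021 without DMSO replicate 2). SGK1 belongs to this list, as does IER5, at 6.86 to 12.3 CPM in treated libraries (median 8.81), against 13.8, 12.6 and 13.2 CPM in DMSO libraries, which were all higher (log2 fold change −0.51, SE 0.13; edgeR adjusted p = 0.186). EGR1, a zinc finger factor, was at −0.92 and −0.31 with TCEP and −0.55 and −0.28 with TCIPP, with a mean of −0.52 (SE 0.11; edgeR adjusted p = 0.134, DESeq2 adjusted p = 0.015). DUSP1, a phosphatase for MAP kinases, had a positive mean log2 fold change of 0.49 (SE 0.10; edgeR adjusted p = 0.0771, DESeq2 adjusted p = 0.00082), but with 21.4% unique reads its counts may include another locus.

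Among cell cycle genes, 46 of 55 mitosis and G2/M genes had a negative mean log2 fold change, with a median of −0.07, against 6341 of all 12567 genes. Of the 55, 19 were negative in all 4 exposures (20.8% of all genes). Relative to the DMSO mean, the list's mean level was −0.348 to 0.0336 log2 units in treated libraries and −0.0788 to 0.0443 in DMSO libraries, which overlap. Of 50 DNA replication and S phase genes, 30 had a positive mean log2 fold change, with a median of 0.02 (−0.01 without TCEP at 25 µM). At an unadjusted p of 0.05, 4 of the 55 were lower, against 5.34% of all genes, and edgeR and DESeq2 called 0 after adjustment. CKS2, a cyclin-dependent kinase subunit, was at −0.22 (SE 0.07; edgeR adjusted p = 0.304). Of 29 p53 targets, 12 were negative and 7 positive in all 4 exposures (20.8% and 20.3% of all genes), with a median of −0.07 (−0.11 without DMSO replicate 2). BBC3, which encodes the death protein PUMA, had 18.2 to 21.0 CPM in treated libraries (median 19.6), against 17.0, 16.7 and 17.7 CPM in DMSO libraries, and FDXR, a mitochondrial electron donor to steroid-making enzymes, had 18.4 to 32.1 CPM in treated libraries (median 28.4), against 34.7, 37.5 and 34.3 CPM. Both were apart from DMSO, in opposite directions, at log2 fold changes of 0.18 (SE 0.07; edgeR adjusted p = 0.319) and −0.32 (SE 0.09; edgeR adjusted p = 0.231), although BBC3 was at 0.0045 (adjusted p = 0.996) once libraries were thinned to the lowest total. The list had 2 members above all DMSO libraries and 1 below (0.39% and 0.438% of all genes). TNFRSF10B was the other member above, at 0.10 (SE 0.04, edgeR adjusted p = 0.446). CDKN1A, the cell cycle inhibitor p21, was at −0.14 (SE 0.06; edgeR adjusted p = 0.424).

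Liver functions gave small and mixed differences. Of 21 hepatocyte markers, 5 were positive and 3 negative in all 4 exposures (20.3% and 20.8% of all genes). The mean log2 fold change was positive for 16 of the 21 (49.5% of all genes), with a median of 0.02. It ran from −0.31 for ALB to 0.58 for TAT. At an unadjusted p of 0.05, 4 were higher and 1 lower (5.34% of all genes each way). HNF4A, the nuclear receptor that maintains hepatocyte identity, had 205 to 229 CPM in treated libraries (median 217), against 205, 205 and 197 CPM in DMSO libraries, a log2 fold change of 0.10 (SE 0.04; edgeR adjusted p = 0.428). ALB, albumin, was at −0.31 (SE 0.11; edgeR adjusted p = 0.307) and AFP, alpha-fetoprotein, at −0.28 (SE 0.08; edgeR adjusted p = 0.254), and for both DMSO replicate 2 lay within the range of the treated libraries. Of 23 clotting genes, 2 had all treated libraries above DMSO (0.39% of all genes): SERPINC1, antithrombin, at 0.25 (SE 0.06; edgeR adjusted p = 0.173) and F7, factor VII, at 0.39 (SE 0.11; edgeR adjusted p = 0.231). Among conjugating enzymes, 9 of 26 were negative and 1 positive in all 4 exposures. GSTA2, a glutathione transferase, had 0.90 to 2.92 CPM in treated libraries (median 2.04), against 3.58, 3.09 and 3.37 CPM in DMSO libraries, which were all higher, at −0.71 (SE 0.21; edgeR adjusted p = 0.261). UGT2B4, a bile acid glucuronosyltransferase, was at −0.56 (SE 0.14; edgeR adjusted p = 0.186). CYP1A1, the classical dioxin-induced oxidase, was at −0.39 (SE 0.30; edgeR adjusted p = 0.708).

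Most of the 104 genes without overlap stood outside these lists, which hold 20 of them. The following were chosen after their values were seen. Some larger shifts were in genes of low level. BEAN1 had 1.12 to 2.96 CPM in treated libraries (median 1.70), against 0.896, 1.11 and 0.889 CPM in DMSO libraries. MT1G, a metallothionein that binds zinc and copper, had 1.66 to 3.39 CPM in treated libraries (median 2.12), against 4.86, 3.59 and 3.56 CPM in DMSO libraries. Their log2 fold changes were 1.00 (SE 0.23) and −0.84 (SE 0.19), and unique reads made up 33.2% for BEAN1. At higher levels, RARRES2, which encodes the adipokine chemerin, had 27.7 to 38.1 CPM in treated libraries (median 31.7), against 43.0, 40.1 and 39.8 CPM, and TOMM20, a receptor of the mitochondrial outer membrane, had 513 to 689 CPM (median 588), against 489, 502 and 511 CPM. TLE1, a transcriptional corepressor, had 97.3 to 125 CPM (median 104), against 88.2, 92.0 and 79.8 CPM, and CBX5, a heterochromatin protein, had 49.2 to 61.6 CPM (median 53.9), against 43.9, 44.9 and 45.5 CPM. DESeq2 called RARRES2 (adjusted p = 0.0115), TOMM20 (0.0108), TLE1 (0.00649) and CBX5 (0.0147).

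NLRC5, the activator of class I genes, had 5.51 to 8.05 CPM in treated libraries (median 6.60), against 9.47, 9.28 and 9.36 CPM in DMSO libraries. TAP1, the peptide transporter, had 17.1 to 28.2 CPM in treated libraries (median 24.5), against 30.3, 31.1 and 29.7 CPM. CD74, the class II invariant chain, had 45.8 to 57.3 CPM in treated libraries (median 49.5), against 60.6, 59.8 and 57.8 CPM. These 3 were picked from the genes with all treated libraries below DMSO (0.438% of all genes), so that gap was fixed by the choice. Class I and class II genes were not counted as a list. The log2 fold changes were −0.50 (SE 0.12), −0.37 (SE 0.11) and −0.23 (SE 0.06), with edgeR adjusted p of 0.145, 0.254 and 0.19. After thinning to the lowest total, NLRC5 was at −0.27 and RARRES2 at −0.20.

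How alike the 4 exposures were was tested without reference to DMSO. A test with 3 degrees of freedom among the exposures called 1 gene (0.00796%) and had 1524 (12.1%) at an unadjusted p of 0.05. The gene was MATN3, a matrix protein, at 0.54 and 0.14 with TCEP and 0.51 and −0.06 with TCIPP. Treated libraries with the same replicate number varied together, and with the replicate number as a block in the fit of all libraries the test called 737 of 12567 genes. With the block in the 12 treated libraries alone, a fit chosen after seeing the data, it called 1764 of 12567 genes. The single call of the unblocked test therefore does not show that the exposures were alike. Among the 104 genes without overlap, the unblocked test was under an unadjusted p of 0.05 for 9 of the 49 above DMSO and 2 of the 55 below. Those genes were picked by a rule that favours exposures that agree. Counts within the 104, here and below, therefore do not measure how alike the exposures are. At the concentration that the compounds share, 25 µM, TCIPP against TCEP had 5 calls (0.0398%), AFF1, CYB5A, EDN1, MATN3 and VCAN, and 0 of the 104 genes. With the replicate block in the 12 treated libraries alone, a fit chosen after seeing the data, it had 2089 calls (16.6%), among them 7 of the 104 genes. For the leading members that difference was 0.08 for SGK1 (95% interval −0.16 to 0.31; edgeR adjusted p = 0.755), −0.01 for SPP1 (−0.30 to 0.27; 0.973), 0.11 for EIF1 (−0.05 to 0.27; 0.454) and 0.09 for ERN1 (−0.13 to 0.32; 0.66). It was −0.49 for FHL2 (−0.75 to −0.23; 0.0833) and −0.42 for HSP90AA1 (−0.60 to −0.24; 0.0753), and with the block both passed, at −0.49 (SE 0.06; adjusted p = 5.4e-05) and −0.43 (SE 0.06; 0.00024). SGK1, SPP1, EIF1 and ERN1 had blocked adjusted p of 0.528, 0.801, 0.113 and 0.498. The intervals of these 4 still hold differences of some size and do not show that the compounds act alike.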

How the data were processed

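Poly-A RNA of 15 HepG2 libraries was sequenced from a stranded kit, per the labels. Per the labels' design text, the authors used CLC Genomics Workbench to align and count reads, and per the submitters' processing notes the build was hg19 (GRCh37). Its version, and any use of strand in counting, are not given in the sources used here. It is therefore not known whether reads of a gene and of its antisense partner were counted apart. The deposited whole-number counts of total exon reads per gene were tested. RPKM as deposited, which the file headers define per kilobase of exon and mapped reads, served only for marker sums. Deposited quantile-normalized values were not used here. Gene starts were moved by 1 base to a 1-based scale.

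Of 57773 genes, edgeR's filterByExpr kept 12567. The main test was edgeR 4.0.16 (R 4.3.3), quasi-likelihood with TMM scaling, on all 15 libraries, with the mean of the 4 exposures (weight 0.25 each) minus DMSO as contrast and Benjamini-Hochberg adjustment at 0.05. The steps were tested on simulated data. Its libraries were drawn independently, so variation shared by same-numbered libraries was not covered. CPM uses TMM-scaled totals. DESeq2 1.42.0, limma-voom (limma 3.58.1), other scalings, filters and read columns, thinning to the lowest total, a replicate block and leaving out each library or exposure were alternatives. DESeq2 gave no adjusted p for 5360 genes. Library measures used exact permutation over 455 assignments (SciPy 1.17.1). Reads carry no molecular identifiers, so the floor of 3 reads covers counting error only.

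Same-numbered treated and DMSO libraries had deviations correlated at 0.0164 to 0.158, all positive but not all over 0.1, so the numbers were not taken to pair them. The best-matching DMSO library had the same number for most treated libraries, but not for all. The count of genes called depends on this choice, as given below. Same-numbered treated libraries of different exposures were correlated at 0.13 to 0.337, so the numbers were taken to pair those. The main test and DESeq2 had no block and took all treated libraries as independent. If replicate sets are shared among the exposures but not with DMSO, the SEs of the mean contrast are too small. Its p-values would then be too low and the DESeq2 calls too many. How much this matters was not tested.

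The comparison, its members and the 34 gene lists (999 genes, 869 of them tested) were chosen with earlier results of these data known. The naming rule took up to 12 called genes per direction or, failing 5, the 5 with the smallest p, then up to 4 members of each list and a set always looked up. Other genes, among them those outside the lists with no overlap and JDP2, VLDLR and HNF4A, were chosen after their values were seen. Not every gene named by the rule is given.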

Additional observations from a re-analysis of the deposited data

Results flagged for a closer look

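MATN3, a cartilage and matrix protein gene (chr2:20191872-20212455, minus strand, hg19), was picked out because the exposures themselves differed (edgeR quasi-likelihood, 3 degrees of freedom, adjusted p = 0.04418). It averaged 591 ± 34.6 CPM with TCEP at 25 µM, 446 ± 27.4 CPM with TCEP at 250 µM, 576 ± 23.5 CPM with TCIPP at 2.5 µM and 390.3 ± 9.67 CPM with TCIPP at 25 µM, against 406 ± 55.5 CPM with DMSO (SD, n = 3 each). At the shared 25 µM, TCIPP minus TCEP was −0.60 on the log2 scale (95% interval −0.78 to −0.42). Unique reads made up 66.1%. The test that picked MATN3 out had no replicate block, and with it 737 genes were called among the exposures.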

How the results depend on the processing

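Genes called for the mean contrast (higher, lower, and called with 1 sign in all 4 exposures) numbered 51, 22 and 72 with DESeq2, 181, 173 and 334 with no filter on low counts, 5, 8 and 13 with unique exon reads, 2, 5 and 7 after thinning, 0, 1 and 1 with the 12 treated libraries as 1 group (SGK1), and 3, 9 and 12 without the exposure TCIPP at 25 µM. With the replicate block they were 301, 267 and 532. The block has not been shown to pair treated with DMSO libraries. The other settings gave 0 of each. Leaving out 1 library gave 0 to 32 higher, 0 to 16 lower and 0 to 48 with 1 sign, the most without DMSO replicate 2. Genes with all treated libraries above DMSO numbered 48 to 356, and below DMSO 59 to 344, when 1 library was left out. They numbered 80 above without TCEP at 25 µM, 99 above and 92 below without TCEP at 250 µM, and 145 above and 170 below without TCIPP at 25 µM. Genes called among the exposures numbered 230 with DESeq2, 685 with no filter, 737 with the replicate block, 1764 with the block in the 12 treated libraries alone and 2 in those without it, the last 2 chosen after seeing the data. TCIPP against TCEP at 25 µM had 2089 calls with that block, against 5. Calls among the exposures numbered 0 with library totals, with unique exon reads and without any 1 exposure, and 0 to 2 when 1 library was left out. The cause of these moves was not tested. No value changed its sign among the results named, and the medians of the heat shock, unfolded protein response, ATF4, hypoxia, glycolysis and NRF2 lists kept their sign in all settings. The heat shock median was −0.05 without DMSO replicate 1. Medians of some lists near 0, such as hepatocyte markers, changed sign in at least 1 setting.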

Other observations

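Genes of the mitochondrial genome had a negative mean log2 fold change for 13 of 13 tested members, with a median of −0.11 (−0.07 without DMSO replicate 2 and −0.19 without DMSO replicate 3). By exposure the median was −0.20 (TCEP 25 µM), −0.10 (TCEP 250 µM), −0.20 (TCIPP 2.5 µM) and 0.04 (TCIPP 25 µM), so 4 of the 13 were negative in all 4. MT-CO2, a subunit of cytochrome oxidase, had 7128 to 8927 CPM in treated libraries (median 7857), against 8746, 9802 and 8308 CPM in DMSO libraries, which overlap (edgeR adjusted p = 0.278). Cytosolic ribosomal proteins had a positive fold change in 73 of 79 members, 27 of them in all 4 exposures, with a median of 0.09 that was 0.18, 0.07 and 0.12 in the first 3 exposures of that order and −0.02 with TCIPP at 25 µM. EdgeR and DESeq2 called 0 genes of either list. At an edgeR unadjusted p of 0.05, 4 of the 13 mitochondrial genes were lower and 10 of the 79 ribosomal protein genes higher in treated cells, against 5.34% of all genes in each direction.

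Of 26 cholesterol synthesis genes, 9 were negative and 1 positive in all 4 exposures. FDPS, which makes farnesyl diphosphate, was at −0.15 (SE 0.05; edgeR adjusted p = 0.304) and HMGCS1, an early enzyme of the pathway, at −0.10 (SE 0.06; edgeR adjusted p = 0.572). CPT1A, which admits fatty acids to mitochondria, was at 0.33 (SE 0.13; edgeR adjusted p = 0.362). CTH, which makes cysteine, was at 0.27 (SE 0.07; edgeR adjusted p = 0.176) and DDIT3, the stress factor CHOP, at 0.16 (SE 0.12; edgeR adjusted p = 0.706).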
